A study of Mus musculus with 2 samples.

Results

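The developmental homeobox genes outside the Hox clusters were examined on 2 promoter arrays that had been hybridised with chromatin of mouse embryonic stem (ES) cells immunoprecipitated for Tcf3. Members were the genes that the array annotation names Nkx, Dlx, Lhx, Irx, Sine oculis-related (for example Six2 and Six3), Msx, En, Otx or Emx with a number, or Lmx1a or Lmx1b. This gave 44 of the 17097 gene names on the arrays, in 9 families, and 1768 of the 474380 spots. The choice used names alone and no measured value.

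The cells were feeder-free E14, an established line of mouse ES cells, untreated and of no stated genetic change. On each array the Cy5 channel carried amplified immunoprecipitated DNA and the Cy3 channel carried input DNA of the same kind of cells. The protocols list several antibodies and do not say which one was used on the arrays, so Tcf3 is taken from the sample titles. The arrays shared 0 probes, so each gene was measured once, with no replicate and with no control immunoprecipitation.

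Tcf3, also called Tcf7l1, is an HMG-box factor that binds DNA in the Wnt pathway and acts mostly as a repressor where beta-catenin is absent. Homeobox proteins bind DNA through the homeodomain and pattern the body axes, the neural tube and the organs. Most of the genes examined here are silent or low in undifferentiated ES cells, where many lie in CpG-rich domains held by Polycomb complexes.

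Of the 1768 member spots, 1256 were measured, meaning above background in both channels, with 12 to 51 per gene (median 28). Over all probes, 69.3% were measured on array 1 and 48.2% on array 2. Values are log2 ratios of immunoprecipitate over input, centred on the median of each array. The scatter of unenriched probes was 0.71 on array 1 and 0.68 on array 2, on that log2 scale. A set is a probe with its nearest measured neighbour on each side within 1000 bp, so 2 to 3 probes, and each gene is given by its highest set mean. The SD beside a set mean is the scatter along the DNA and not an error between experiments. A probe was called when its set stood above the array's scatter by a neighbourhood rule with a set probability under 0.001, and a gene was called when a called probe carried its name.

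Probes of 3 called genes are printed first, because they lie at the LIM-homeobox genes Lmx1b and Lmx1a and at Nkx1-2 and cover a wide range of base composition. Positions are in the arrays' own coordinates, and no label or header names their genome build.
Lmx1b probe 1, chr2:33644698-33644752: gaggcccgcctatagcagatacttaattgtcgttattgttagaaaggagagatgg
Lmx1b probe 3, chr2:33645065-33645124: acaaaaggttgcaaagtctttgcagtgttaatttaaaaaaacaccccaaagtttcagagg
Nkx1-2 probe 1, chr7:129005779-129005838: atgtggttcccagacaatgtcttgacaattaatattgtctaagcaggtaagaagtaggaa
Nkx1-2 probe 2, chr7:129006010-129006063: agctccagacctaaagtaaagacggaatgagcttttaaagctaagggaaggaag
Nkx1-2 probe 3, chr7:129006185-129006243: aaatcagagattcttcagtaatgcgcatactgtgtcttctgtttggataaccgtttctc
Lmx1a probe 1, chr1:167666773-167666817: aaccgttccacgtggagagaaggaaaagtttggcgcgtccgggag
Lmx1a probe 2, chr1:167666906-167666950: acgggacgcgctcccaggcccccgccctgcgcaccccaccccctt
Lmx1a probe 3, chr1:167667080-167667124: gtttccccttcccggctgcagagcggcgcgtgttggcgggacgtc
The T-cell factor motifs searched were CTTTGAT and, with another ending, CTTTGAA or CTTTGTT, and also CTTTGTA. None of these 8 probes holds any of the 4 on either strand. The Lmx1b probes printed contain 35% and 43.6% G and C, whereas Lmx1a probe 2 contains 80%.

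Of the 44 homeobox genes, 11 were called (25%), against 15% of all 16918 genes with measured probes. Genes with more probes have more chances to be called. Among genes with 12 to 51 measured probes, the range of the members, the share was 18.5%. Their median was 20 measured probes against 28 for the members, so this range did not match probe number fully. On array 1, 8 of 24 members were called (33.3%, against 18% of its genes). On array 2, 3 of 20 were called (15%, against 11.9%), which was close to the background of that array. The median of the highest set mean was 1.28 over the members, 1.05 over genes in the members' probe range and 0.98 over all genes. Of the 44 members, 34 (77.3%) lay above the median of all genes and 9 (20.5%) lay in the top 10% of all genes.

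**Figure D1:**
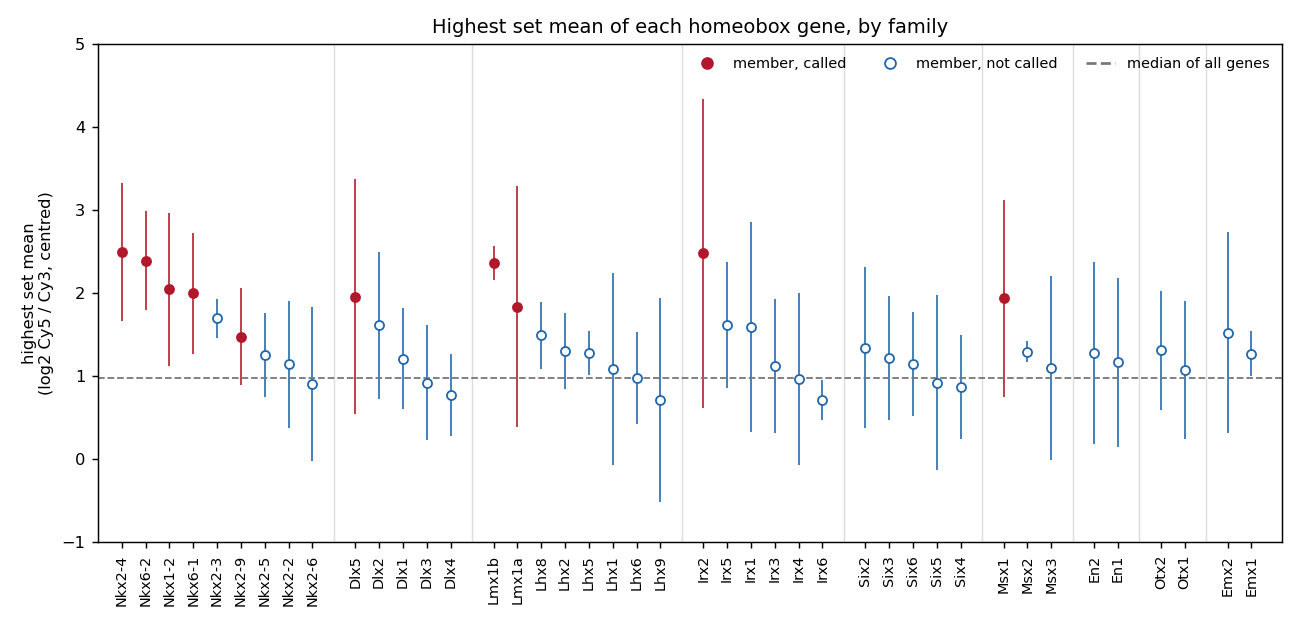
Highest set mean of 42 of the 44 homeobox genes (vertical axis, log2 Cy5 over Cy3 centred on the array median), grouped by family, with bars of 1 SD over the 2 to 3 probes of the set. Filled red points are called genes, open blue points are genes not called, and the dashed line is the median of all genes at 0.98; Nkx2-4, Irx2, Nkx6-2 and Lmx1b are the highest.

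The ratio moved with base composition in all probes. Outside the members, the median probe value was -0.15 at 40% to 50% G and C and 1.40 at 70% and above. Member probes had -0.02 and 1.20 in those same ranges. Called member probes had a median G and C content of 63.3%, against 45.8% for all measured member probes and 44.2% for all measured probes. Another setting therefore subtracted the median ratio of probes with like G and C content, and a further one used all spots, including those where the scanner software had filled in a value for a signal not above background. With the G and C trend subtracted 15 of 44 members were called (34.1%, against 14.3% of all genes and 16.7% of genes in the members' probe range). With all spots 13 of 44 were called (29.5%, against 15.3% and 16.9%). On array 2 alone the all-spot count was 4 of 20 (20%, against 5.47%), and on array 1 it was 9 of 24 (37.5%, against 24.9%). Other choices gave 19 members (43.2%, against 21.4% of all genes) with normexp, a background correction that models signal plus noise, and 16 (36.4%, against 17%) with an intensity trend subtracted. A set probability of 0.01 gave 13 (29.5%, against 16.8%), one of 0.0001 gave 9 (20.5%, against 11.2%), and neighbours within 500 bp gave 10 (22.7%, against 14.2%). The part that base composition plays in any single call was not tested.

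The calls were not all the same genes. In all 3 settings 8 genes were called, namely Nkx2-4, Nkx6-2, Nkx1-2, Nkx6-1, Dlx5, Lmx1b, Lmx1a and Irx2. A further 3 genes were called in 2 settings, 9 in 1 setting and 24 in none. The setting with the trend subtracted shared 10 genes with the measured spots, 90.9% of those called in the measured spots and 66.7% of its own. Subtraction moved the array balance, since 7 of 20 members were then called on array 2 (35%, against 7.75% of its genes) and 8 of 24 on array 1 (33.3%, against 20.8%).

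**Figure D2:**
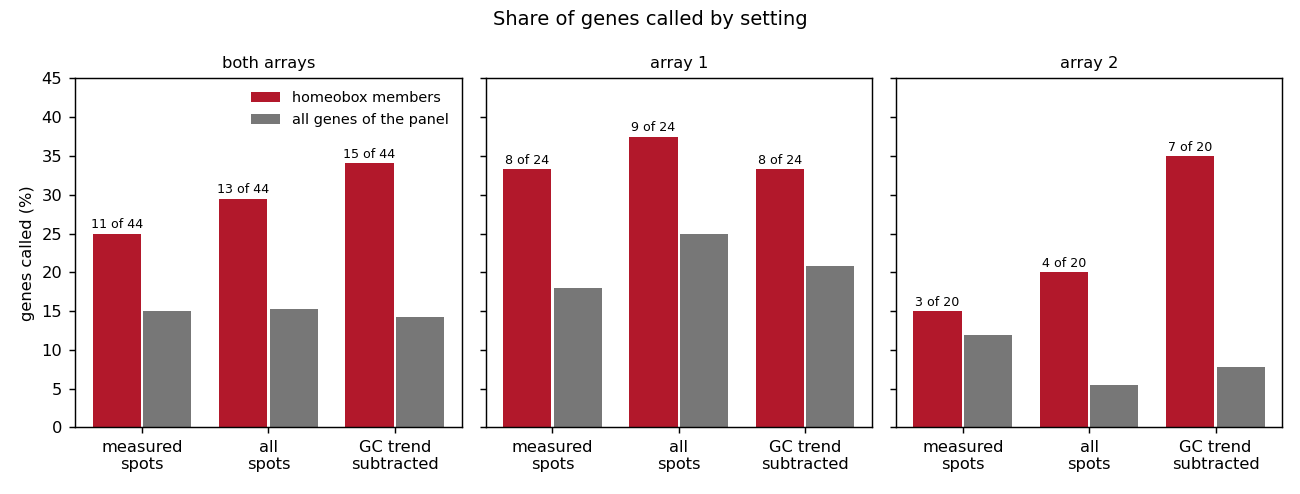
Percent of genes called (vertical axis, from 0) in 3 settings (horizontal axis) for the homeobox members in red and all genes of the same panel in grey, on both arrays together and on each alone. The member bars stand above the grey bars in each panel, by the least on array 2 with measured spots (15% against 11.9%).

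The Nkx genes encode factors of ventral neural tube, foregut, pancreas and heart, and 5 of their 10 members were called. For this and the family counts below, the background was 15% of all genes and 18.5% of genes in the members' probe range. Under the other settings the Nkx count lay between 3 and 6. Nkx2-4, a close paralogue of the thyroid and forebrain factor Nkx2-1, had the highest set mean of the 44 genes. Its probes at chr2:146824825-146825462 read 9586, 8867 and 2980 in the Cy5 immunoprecipitate channel, against 3754, 1104 and 612 in the Cy3 input channel. The log2 values were 1.63, 3.29 and 2.57, which gave 2.50 ± 0.83 (SD over 3 probes), and 1.25% of all genes were higher. At Nkx2-4, 6 called probes formed 1 region from 146824931 to 146826351, which reached from inside the gene across its start. The values along it were uneven, at 3.29, 2.57, 0.92, 2.92, 0.75 and 2.62. Those of 0.92 and 0.75 met the rule only through their neighbours. Only 15 of the 40 Nkx2-4 probes were measured, and the highest set was 68.9% G and C. With the trend subtracted that set fell to 1.23 and 1 called probe was left.

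Nkx6-2 and Nkx6-1, which pattern the ventral neural tube and, for Nkx6-1, specify pancreatic beta cells, were both called just downstream of the gene's start. At Nkx6-2 the set was centred 113 bp downstream of the start and its probes read 2.07, 3.08 and 2.02, a mean of 2.39 ± 0.60. All 3 were called, and the mean was 1.65 ± 0.58 and again called after the trend was subtracted. At Nkx6-1 the probes read 2.19, 1.20 and 2.61 around a point 515 bp downstream, a mean of 2.00 ± 0.72. After subtraction the Nkx6-1 call lay elsewhere, 4483.5 bp upstream, where the central probe of the set read -0.57 and its neighbours 2.63 and 1.82.

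Nkx1-2, a gene of the tail bud and posterior neural plate, was called 1505.5 bp upstream of its start. Its probes read 418, 2814 and 6387 in the immunoprecipitate and 253, 656 and 1153 in the input, or 1.01, 2.38 and 2.75 on the log2 scale. The mean was 2.05 ± 0.92, and 4.83% of all genes were higher. This set is AT-rich (39.4% G and C), and with the trend subtracted it reached 2.33, with 1.09% of genes higher. The array gives these probes to 2310007H09Rik as well as to Nkx1-2, so the values belong to the DNA between or across the 2 genes.

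Nkx2-9, a partner of Nkx2-2 in the ventral neural tube, was called 167.5 bp upstream through the neighbours of a low central probe, with values of 1.83, 0.23 and 1.83. When the central probe itself had to be one of the 2 high probes, Nkx2-9 and Lmx1a were no longer called. In that setting 9 members were called, and 2328 of all 16918 genes. Nkx2-3, a spleen and gut gene, was the highest member with no call in any of the 3 settings, at 1.70 ± 0.23 over 2 probes. Nkx2-2 reached 1.14 ± 0.76 and the heart gene Nkx2-5 reached 1.25 ± 0.51, and neither was called.

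A further 2 genes of the Nkx group are on the arrays under older names, outside the naming rule. Titf1, the present Nkx2-1, had a set mean of 2.72 ± 0.83 and was called, with 0.549% of genes higher, and it remained called at 1.54 after the trend was subtracted. Bapx1, the present Nkx3-2, had 1.44 ± 0.62 and was not called.

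Among the Dlx genes, which act in the branchial arches, the skeleton and forebrain interneurons, Dlx5 alone of 5 was called. Its probes read 1.49, 3.54 and 0.83, a mean of 1.96 ± 1.42, so that a single probe at chr6:6838910-6838962 carried the signal. That probe had 10954 in the immunoprecipitate and 1141 in the input. Its G and C content was 41.5%, and the same Dlx5 set was 2.03 ± 1.55 with the trend subtracted. The highest Dlx5 set was then the next one along, at 2.17 ± 1.45, which held the same high probe. With neighbours limited to 500 bp, Dlx5 was not called. Dlx2 followed at 1.61 ± 0.89 without a call in any of the 3 settings, and the other 3 Dlx genes lay between 0.77 and 1.21. Dlx2 was called with normexp, with an intensity trend subtracted and with a set probability of 0.01.

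Of the 8 LIM-homeobox genes, the Lhx and Lmx1 group, only the Lmx1 pair was called. Lmx1b, which sets dorsal limb identity and the fate of midbrain dopaminergic and hindbrain serotonergic neurons, had the most even set of the called genes. Its 3 probes read 4302, 3992 and 2359 in the immunoprecipitate, against 1021, 821 and 641 in the input. The log2 values of 2.36, 2.56 and 2.16 gave 2.36 ± 0.20, a 5.13-fold excess over the array median, inside the gene, downstream of its start. With the trend subtracted the set rose to 2.59 ± 0.26, with 0.488% of all genes higher, and it was the highest of the 44 members. A second Lmx1b region, with 2 called probes at 75.6% G and C, lay 171 bp downstream of the start, and it was not called after subtraction.

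Lmx1a, a gene of the roof plate and midbrain dopaminergic progenitors, was called 988 bp upstream. Its outer probes read 2.24 and 3.04 and the central one, the probe at 80% G and C printed above, read 0.23, so the mean of 1.84 ± 1.45 joined unlike neighbours. After subtraction the called set was another one, 1144.5 bp downstream, with a central probe of 0.30 between 1.56 and 2.34. Lhx1, a head organizer gene, reached 1.08 ± 1.16 and was called, of the 3 settings, with the trend subtracted, from probes of 1.76, 1.81 and -0.08. The forebrain gene Lhx5 had 1.28 ± 0.27 and no call, and Lhx9, a gonad and limb gene, was among the 3 lowest members at 0.71 ± 1.23, beside Irx6 at 0.71 ± 0.24.

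In the Irx genes, Iroquois factors that subdivide the neural plate and the heart, Irx2 was the only one of 6 called. The last probe of its set read 4.49, the highest probe of any member's highest set, from 38160 in the immunoprecipitate and 1964 in the input. Its neighbours read 0.82 and 2.11, so the set mean was 2.48 ± 1.86, centred 277 bp downstream of the start. With the trend subtracted the same set was 1.26 ± 1.96, and the call, from 1 probe in place of 2, lay at the next set, 404 bp downstream, at 1.56 ± 1.53. Irx5 (1.62 ± 0.76), Irx1 (1.59 ± 1.27) and Irx3 (1.12 ± 0.81) were not called in the measured spots. Irx1 was called with all spots, in a set of 0.52, 2.85 and 1.15, of which 1 spot was not measured.

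The 7-base word CGGCGGC occurs in a called probe of the Irx2 set and in a probe of the Nkx6-1 set that was not itself called, printed here with the word in capitals.
Irx2 probe 3, chr13:69560306-69560350: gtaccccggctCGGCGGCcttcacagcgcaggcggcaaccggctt
Nkx6-1 probe 1, chr5:100880552-100880596: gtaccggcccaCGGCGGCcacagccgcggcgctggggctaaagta
Of 26 called member probes 2 held it (7.69%), the Irx2 probe and the called Msx1 probe of 2.97, against 4 of 1230 member probes not called and 0.257% of all measured probes. Among the called probes of all genes the share was 7.11%, so its frequency in called member probes was close to that of called probes in general. The 4 that were not called lay at Irx3, Lhx2 and Nkx6-1, the highest of them at 2.19. The part of this word in the calls of Irx2, Msx1 and Nkx6-1 was not tested.

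**Figure D3:**
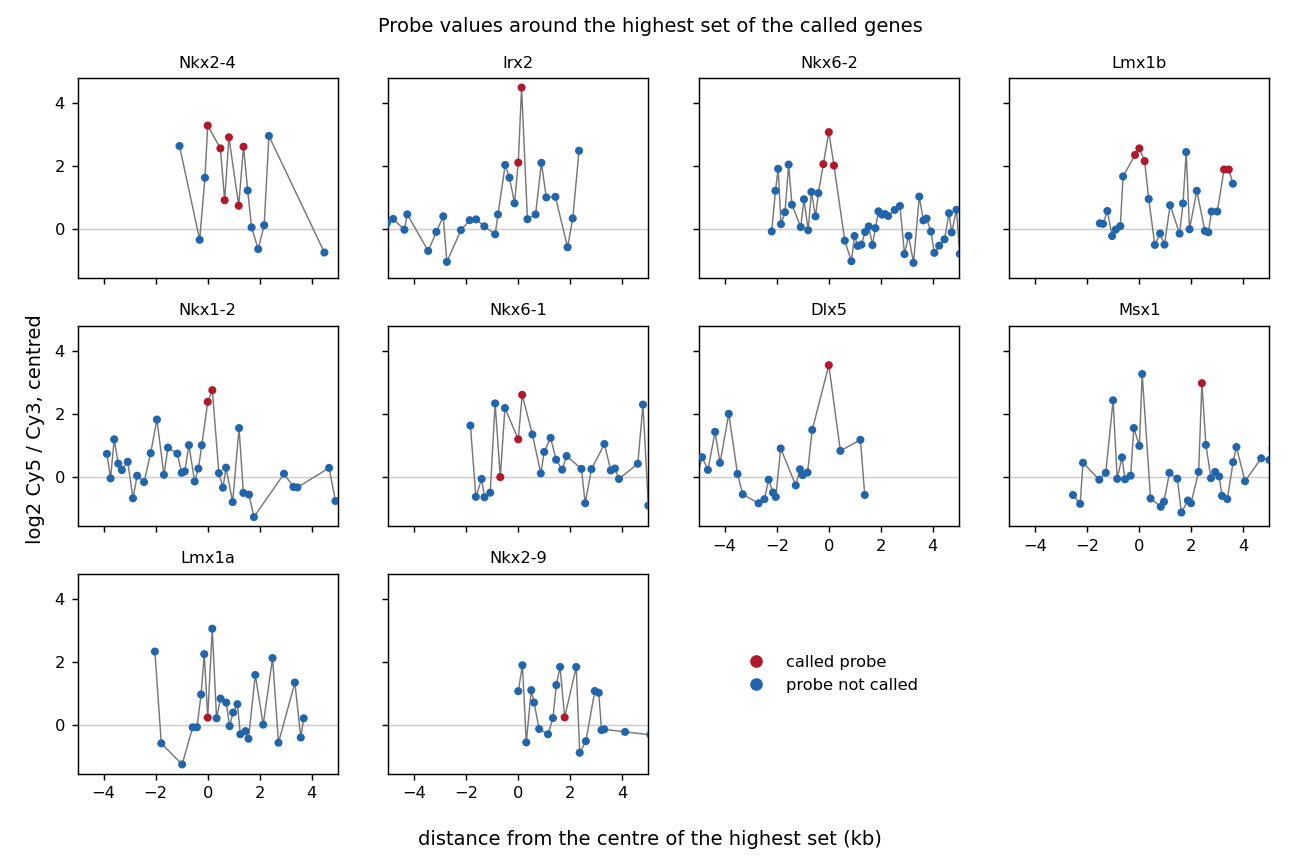
Log2 Cy5 over Cy3 of each measured probe (vertical axis) against its distance in kb from the centre of the highest set (horizontal axis, in the direction of the array coordinates) for 10 of the 11 called genes, with called probes in red and others in blue. Lmx1b shows 3 adjacent called probes between 2.16 and 2.56, while Dlx5 shows a single called probe at 3.54 and Irx2 shows 2, at 2.11 and 4.49.

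The sine oculis-related genes act in the eye, the kidney and the forebrain. Six2, the gene of nephron progenitors, had 1.34 ± 0.97 and, of the 3 settings, was called after subtraction. Six3, a forebrain and eye gene, had 1.22 ± 0.75 over probes of 2.01, 1.11 and 0.53 and was not called in any of the 3 settings. Six4 was called, of the 3 settings, with all spots, from a set of 2 probes of 2.47 and 1.08. That set lay 8672.5 bp upstream of the start, and 1 of its spots was not measured.

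The 3 Msx genes act downstream of BMP signals in the skull, teeth, limbs and dorsal neural tube. At Msx1 the highest set and the called set lay in different places. Its highest set lay 71 bp downstream of the start and read 1.55, 0.99 and 3.26, a mean of 1.93 ± 1.19 that did not meet the calling rule. The called set lay 2333 bp upstream, with 0.16, 2.97 and 1.02, a mean of 1.38 ± 1.44, and it was lost after subtraction. Msx2 was even, at 1.36, 1.15 and 1.38 (1.30 ± 0.13), and was not called there; after subtraction it was called in another set of 2.12, 1.97 and -0.04. Msx3 reached 1.10 ± 1.11 and was likewise called, of the 3 settings, after subtraction.

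The En, Otx and Emx genes mark the midbrain, forebrain and cortex, and none of these 6 was called in the measured spots. En2 had 1.28 ± 1.10, with 1 high probe of 2.52 between 0.43 and 0.88. Otx2, which is active in the epiblast as well as in the forebrain, had 1.31 ± 0.71 from probes of 2.03, 1.29 and 0.60. After subtraction Otx2 was called in another set whose central probe read -0.05 between 1.72 and 1.98. Emx2 reached 1.52 ± 1.21 over 2 probes. Both Emx1 and Emx2 were called with all spots, in sets of which 3 (Emx1) and 2 (Emx2) spots had no measured Cy5 or Cy3 signal.

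**Figure D4:**
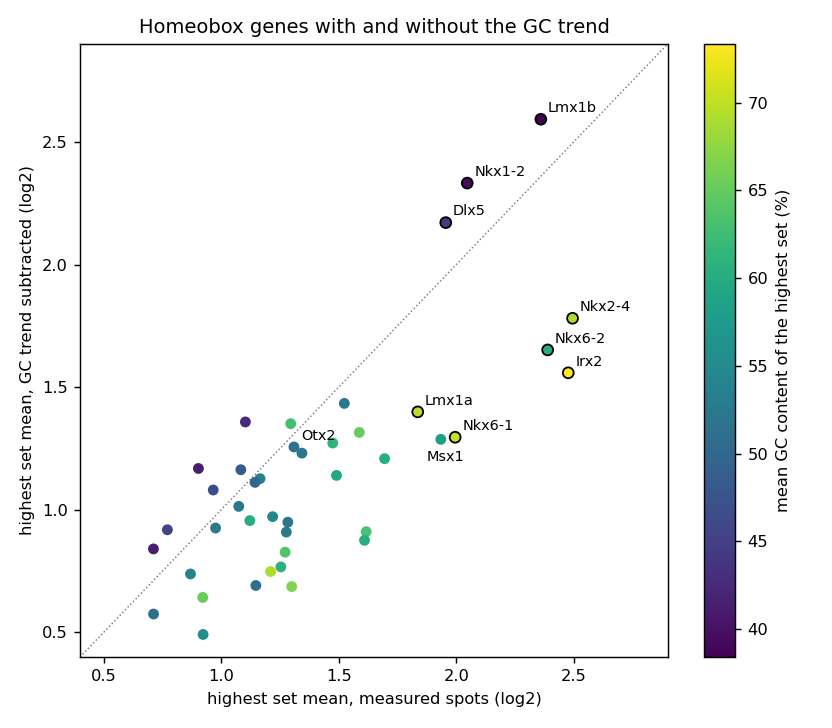
Highest set mean of 42 of the 44 homeobox genes with the trend with G and C content subtracted (vertical axis, log2) against the same value without subtraction (horizontal axis, log2), coloured by the mean G and C content of the highest set; the dotted line marks equal values and black rims mark the 8 genes called in all 3 settings. Lmx1b, Nkx1-2 and Dlx5 lie above the line, and Nkx2-4, Nkx6-2 and Irx2 lie below it.

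Among the 8 genes called in all 3 settings, the direction of this shift followed the base composition of the set, as the subtraction is built to do. Over the same probes, Lmx1b (2.36 without and 2.59 with subtraction), Nkx1-2 (2.05 and 2.33) and Dlx5 (1.96 and 2.03) have sets of 38.4%, 39.4% and 44.4% G and C. Irx2, Nkx2-4 and Nkx6-2 have sets of 73.3%, 68.9% and 60% and moved down, to 1.26, 1.23 and 1.65 over the same probes. The sets of Nkx6-1 (70.4%) and Lmx1a (69.6%) fell from 2.00 to 0.68 ± 0.97 and from 1.84 to 0.56 ± 1.93. Neither of these sets held a called probe after subtraction, and the calls of both genes lay elsewhere. The highest sets of Irx2 and Nkx2-4 were then other ones, at 1.56 ± 1.53 and at 1.78 ± 1.92, the latter over 2 probes and not called. The median over the members with the trend subtracted was 1.12, against 0.90 for genes in the members' probe range and 0.85 for all genes. Of the 44 members, 33 lay above the median of all genes. Within the top 10% of all genes 5 members (11.4%) were left.

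Transcription starts could be placed in the arrays' coordinates for 28 members, by exact matches of array probes to RefSeq promoter windows. Of these 28 genes, 9 had their highest set within 500 bp of the start. By side, the highest set lay upstream in 9 and downstream, inside the gene, in 19. Probes within 500 bp of a member start had a median of 0.67 (127 probes), against 0.31 around the starts of other genes (48863 probes). Between 500 and 2500 bp downstream the medians were 0.27 for members and -0.10 for other genes. Base composition differed as well: those downstream probes had a median G and C content of 48.9% in members and 44% in other genes. After subtraction the medians were 0.25 against 0.09 within 500 bp, and 0.18 against -0.07 from 500 to 2500 bp downstream. Upstream beyond 500 bp the members had 0.09 and other genes -0.09 without subtraction.

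**Figure D5:**
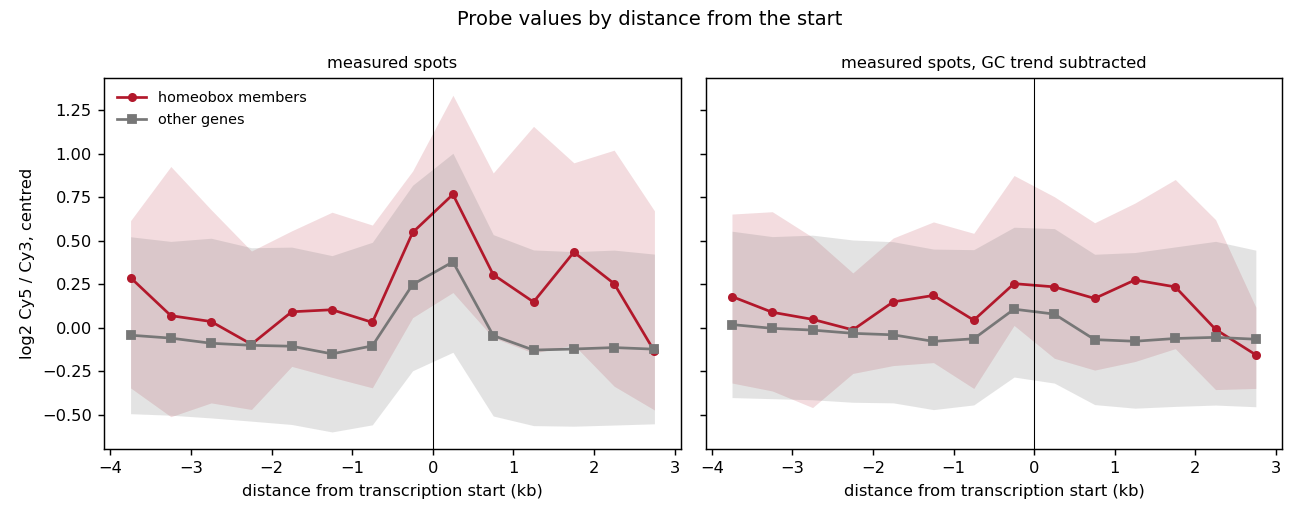
Median log2 Cy5 over Cy3 of probes (vertical axis) in bins of 500 bp by distance from the transcription start (horizontal axis, kb, positive downstream), for 28 homeobox members in red and other genes in grey, with bands from the 25th to the 75th percentile; the trend with G and C content is kept on the left and subtracted on the right. From the start to 500 bp downstream the medians are 0.77 and 0.38 on the left and 0.24 and 0.08 on the right.

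The upstream promoters of Nkx6-2 and Msx1 are printed because a probe with a high ratio lies inside each, called at Nkx6-2 and not called at Msx1. They are the 250 bases before the start from RefSeq, build GRCm38.p6, on the gene's strand, with the bases of the array probe in capitals.
Nkx6-2 promoter, chr7:139582798-139583047, minus strand: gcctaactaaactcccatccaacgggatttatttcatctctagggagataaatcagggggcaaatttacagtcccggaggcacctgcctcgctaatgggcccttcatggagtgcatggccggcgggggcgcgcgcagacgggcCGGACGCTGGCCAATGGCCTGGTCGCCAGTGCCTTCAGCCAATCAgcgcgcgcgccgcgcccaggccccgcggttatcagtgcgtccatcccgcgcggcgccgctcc
Msx1 promoter, chr5:37824586-37824835, minus strand: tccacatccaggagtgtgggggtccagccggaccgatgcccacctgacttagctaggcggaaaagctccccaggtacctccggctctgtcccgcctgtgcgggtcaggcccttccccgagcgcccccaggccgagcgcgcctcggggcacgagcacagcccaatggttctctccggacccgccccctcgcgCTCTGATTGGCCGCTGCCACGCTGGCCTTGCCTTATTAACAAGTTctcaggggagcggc
The Nkx6-2 probe read 2.02 and the Msx1 probe read 3.26. Neither stretch holds any of the 4 T-cell factor motifs, or CGGCGGC, on either strand, and the stretches are 65.2% and 68% G and C. In 39 promoter windows of members, which reach 50 bases past the start, CTTTGAT and CTTTGAA occurred in 0, against 3.73% and 5.14% of all 32851 windows. At those shares few of 39 windows would hold either motif, so a lower share in members cannot be read from the 0. CTTTGTT and CTTTGTA occurred in 2 member windows each (5.13%), against 5.85% and 3.63% of all. CGGCGGC occurred in 10 member windows (25.6%), against 10.1% of all.

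The 4 T-cell factor motifs were found in 0 of 26 called member probes, which allows a share of up to 11.5% by counting error alone. They were in 3.98% of the 1230 member probes not called and in 4.52% of all measured probes. In called probes of all genes the share was 3.43%, and after subtraction of the G and C trend it was 6.58%, against 4.49% of probes not called. Among the 25 member probes called after subtraction 0 held a motif, which allows up to 12%. With all spots 2 of 33 called member probes held one (6.06%), against 5.24% of member probes not called and 5.69% of all probes. These shares cover probe sequences only, and probe centres lay a median of 183 bp (array 1) and 182 bp (array 2) apart. Motifs in the DNA between probes could not be seen, so the 0 does not show that a called region lacks them. Called member probes were also richer in G and C (63.3%) than measured member probes (45.8%). The part of that difference in the shares was not tested.

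Calls in the measured spots were also counted by gene cluster. Of Nkx2-2 and Nkx2-4 on chromosome 2, 1 was called, and of Irx1, Irx2 and Irx4 on chromosome 13, 1 was called, although Irx1 and Irx2 were both called with all spots. None was called of Irx3, Irx5 and Irx6, of Dlx1 and Dlx2, of Dlx3 and Dlx4 or of Six2 and Six3 in the measured spots. For scale, the called non-member Axin2, a Wnt feedback inhibitor, had a set mean of 2.62 ± 0.27, and the Tcf3 gene itself had 2.50 ± 0.83. The set means of Nkx2-4 (2.50) and Lmx1b (2.36) lay near these values. With the trend subtracted Lmx1b reached 2.59 ± 0.26, against 2.49 ± 0.69 for Axin2 and 2.65 ± 0.78 for Tcf3. The highest Nkx2-4 set was then another one, 1.78 ± 1.92 over 2 probes and not called, and its called set was 1.23 ± 0.93.

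The order of the members among other homeobox lists differed between settings. In the measured spots 25% of the members were called, against 33.3% of 33 Hox genes, 11.1% of 9 Pax genes and 19.4% of 62 further homeobox genes. With the trend subtracted 34.1% of the members were called, against 36.4% of the Hox genes, 55.6% of the Pax genes and 17.7% of the further homeobox genes. With all spots 29.5% of the members were called, against 18.2% of the Hox genes, 11.1% of the Pax genes and 17.7% of the further homeobox genes. Differences between these lists were not tested.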

How the data were processed

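Feeder-free E14 cells were cross-linked and immunoprecipitated, and DNA was amplified after linker ligation, per the labels' protocols. The authors read the arrays with Agilent Feature Extraction 9.1.1.1, and the deposited processed intensity of each channel is background-subtracted and dye-normalized, per the file headers. Signals not above background carry a surrogate intensity, per the file headers (30.7% of Cy5 spots on array 1 and 51.7% on array 2). The authors' deposited log10 ratio served only as an alternative. Another 2 deposited columns of per-sample values were not used. The authors' own calls are not used here.

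Computed here were log2 ratios of processed Cy5 over Cy3, centred on each array's median over measured, uniform spots. The scale came from values below the median. A called probe had a set probability under 0.001. In addition it had to be under 0.001 by itself beside a neighbour under 0.1, or any 2 of its set had to be under 0.005. These probabilities were only a calling rule. The trend was subtracted as medians in bins of 2% G and C content. The calling rule was also tested on simulated data with planted regions at the real probe positions. Of 50 regions at each log2 height, it found 5 at 1, 16 at 1.5, 43 at 2 and 50 at 3. Regions of lower height were thus mostly missed. The simulated noise was independent between probes and had no trend with G and C content, so it cannot give the rate of false calls in these arrays.

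With 1 array per gene there is no replicate, which is what limits precision. The members, lists and tests were chosen with earlier results of these data known. Named genes are members called in any of the 3 settings, the highest of each family, 13 fixed genes, the 3 lowest, and Axin2 and Tcf3; the values of 2 members are not reported here, and others named are members singled out after their values were seen. Gene starts, promoters and current names came from RefSeq (GRCm38.p6); probes matched 15278 of 32851 promoter windows, and in 99.4% of 6061 windows with several probes all gave 1 start. Tools were Python 3.11.15, numpy 2.4.6, pandas 2.3.3, scipy 1.17.1, R 4.3.3, limma 3.58.1 and matplotlib 3.10.9.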

Additional observations from a re-analysis of the deposited data

How the results depend on the processing

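No paired analysis was possible because each array is a single sample and the arrays carry different probes. The count of called members was 11 in the measured spots and between 9 and 16 under the alternatives other than normexp background correction (offset 50), which gave 19 (all genes then 21.4%); the cause was not tested. The alternatives that subtract the trend from all spots, or ask for a high central probe, were chosen after seeing the data, and each gave 9. Over all genes, 2207 of 17097 and 2328 of 16918 were called in these settings, against 2538 of 16918 in the measured spots. Taking each gene's median probe in place of its highest set gave a member median of 0.16 instead of 1.28, by construction. Family counts are small and moved readily. Dlx (1 called) became 2 with normexp, with an intensity trend subtracted and with a set probability of 0.01, and 0 with neighbours within 500 bp. Emx (0) became 2 with all spots and 1 with the trend subtracted from all spots. En (0) became 1 with normexp, the intensity trend or the trend subtracted from all spots. Irx (1) became 2 with all spots, normexp or the intensity trend. Lhx and Lmx1 (2) became 4 with normexp and 3 with the G and C trend or the intensity trend subtracted. That count was 1 with the trend subtracted from all spots or a high central probe. Msx (1) became 2 with the G and C trend subtracted, normexp or 0.01, 3 with the intensity trend, and 0 with 0.0001 or the trend subtracted from all spots. Nkx (5) became 6 with normexp and 3 with the trend subtracted from all spots. The Nkx count was 4 with all spots, before dye normalization, with the intensity trend, with 0.0001 or with a high central probe. Otx (0) became 1 with the G and C trend subtracted from measured spots. The sine oculis-related genes became 2 with that subtraction, with normexp or before dye normalization. Of 29 named set means, at most 6 moved by more than their SD under any 1 alternative. That SD is scatter along the DNA, so this count does not measure robustness. With the trend subtracted the uneven Irx2 (2.48 to 1.56) did not count as moved, and the even Lmx1b (2.36 to 2.59) did. Changing only the set probability, or asking for a high central probe, cannot move a set mean. Signal over background limits array 2 most, where 48.2% of probes were measured.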
